A study of Mus musculus with 2 samples.

Results

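The RNA polymerase subunits and general transcription factors make up the basal machinery that copies nuclear genes into RNA. The genes were taken by symbol: those whose probe sets carried a single platform symbol beginning with Polr1, Polr2, Polr3, Gtf2 or Gtf3, or with Taf and a digit. This gave 57 of the 12393 genes that have their own probe set, on 96 probe sets, and all 57 matched RefSeq (GRCm38.p6) in both symbol and Entrez ID. Mouse induced pluripotent stem cells (iPSCs), reprogrammed from somatic cells, were measured as 1 hybridized sample and 1 live sample, polyA RNA of each on 1 array. Both had been kept in serum medium for mouse embryonic stem cells with 2i, inhibitors of Mek and Gsk3 that keep mouse cells naive. The labels give no strain, cell line, reprogramming method or time, and the target of the hybridization is not named. The comparison addresses how closely the transcripts of hybridized cells match those of live cells. With 1 array a group there is no test across conditions and no replicate error, and precision is limited by the number of arrays.

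Eukaryotic nuclei hold 3 RNA polymerases. Polymerase I transcribes the ribosomal RNA repeat, polymerase II the protein-coding genes and many small nuclear RNAs, and polymerase III the transfer RNAs, 5S ribosomal RNA and other short RNAs. Each is built from its own large catalytic subunits and smaller subunits, some of which are shared between the enzymes. Each also needs its own initiation factors: SL1 (TBP with TAF proteins) for polymerase I, TFIIA to TFIIH with TFIID for polymerase II, and TFIIIA, TFIIIB and TFIIIC for polymerase III. Pluripotent cells divide fast and are known for high output of ribosomal RNA.

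The authors deposited GCRMA values, taken as log2, with a median over 22690 probe sets of 5.67 in hybridized cells and 5.73 in live cells. A gene is represented by its brightest probe set over both arrays, and was compared where its mean was at least 5 (the level). Each difference is the hybridized log2 value minus the live one, and 2-fold means a difference of at least 1 in size. The iPSC label was checked first. All 10 pluripotency markers reached the level, at 8.79 to 13.17 in the hybridized sample and 8.94 to 13.14 in the live sample. Of 7 fibroblast markers 1 reached it, Col1a1 at 4.46 and 6.17, while the median of the 7 was 2.38 and 2.34. The control probe sets differed by end of transcript. The 5' set of Actb was 1.76 higher and its 3' set differed by -0.76, the 5' and 3' sets of Gapdh differed by 0.96 and -0.85, and those of Tfrc by 1.88 and 1.38. The part of this in the differences below was not tested.

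Of the 57 genes, 53 reached the level, and each of these read 5.43 or more on both arrays. In the hybridized sample 7 were at least 2-fold higher, where the background over all 7262 genes compared was 8.43%, and 10 were at least 2-fold lower, where it was 15.4%. Together 32.1% of the 53 were 2-fold apart against 23.8% of all genes, and 54.7% against 52.7% lay within 1.5-fold. The 2 shares of genes within 1.5-fold are close. The median difference was 0.02 against -0.17 over all genes compared. The SD over genes was 1.07 against 0.86. Differences of all genes narrow with signal, so the counts were also set beside genes of like level. At means from 7 to under 9, 7 of 15 were 2-fold apart against 33.1% of all genes. From 9 to under 11 it was 6 of 26 against 19.7%, and from 11 upward 2 of 8 against 6.31%. Only 4 fell in the range from 5 to under 7, with 2 of them 2-fold apart against 36.2%. The balance of directions depends on the probe sets used. When the probe sets of a gene were averaged, 6 genes were 2-fold higher and 7 lower, against 8.5% and 11.1% of all genes. The median was then 0.115 against -0.05. Over all 82 member probe sets at the level, 15 were 2-fold higher and 11 lower, with a median of 0.255 and no background on that footing. The hybridization controls, spiked-in transcripts, had a median difference of -0.80 over 18 probe sets that ran from -1.22 to -0.15. Centred on this median, every difference gains 0.80, a shift that is uncertain over that range. The counts then become 23 higher and 4 lower of 53, against 31.8% and 2.84% of all genes.

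**Figure D1:**
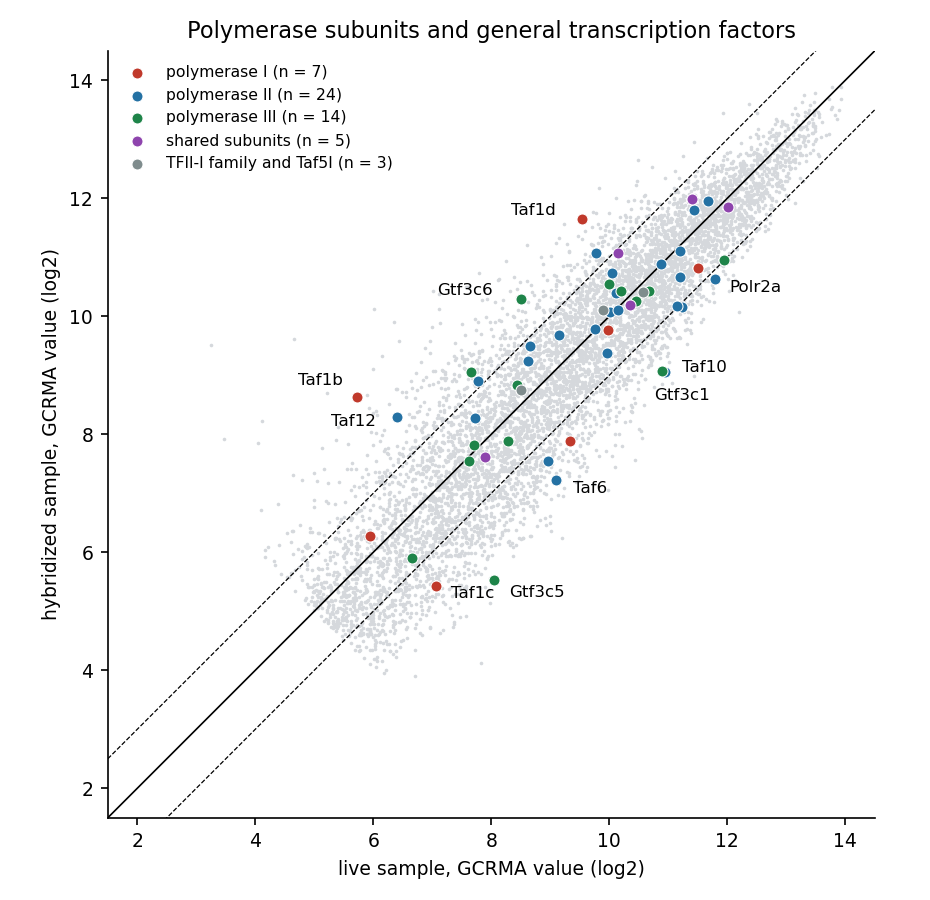
GCRMA log2 value in the live sample (x axis) and the hybridized sample (y axis), with 1 point per gene: grey for the 7262 genes compared, colours for the 53 polymerase and factor genes. The solid line marks equal values and the dashed lines 2-fold; Taf1b, Taf1d, Taf12 and Gtf3c6 lie above the upper dashed line, and Gtf3c5, Taf10, Taf6, Gtf3c1, Taf1c and Polr2a below the lower.

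The largest subunits, which form the catalytic cleft, were lower in the hybridized sample for all 3 polymerases on their brightest probe sets, a grouping chosen after the values were seen. Polr2a encodes the largest subunit of polymerase II, whose heptad-repeat tail is phosphorylated through the transcription cycle. It read 10.63 in hybridized cells and 11.79 in live cells, a difference of -1.16. Polr1a, its counterpart in polymerase I, read 7.89 and 9.33, a difference of -1.44. Polr3a, that of polymerase III, read 10.95 and 11.95, at the 2-fold limit with -1.0. The other probe sets went along only for Polr3a, whose second probe set read 7.70 and 9.61, a difference of -1.91. The second probe set of Polr2a differed by 0.26, and the other 2 of Polr1a by 0.66 and 0.39. After centring on the median gene Polr1a stayed 2-fold lower and the other 2 did not. Centred on the hybridization controls none of the 3 was 2-fold lower.

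The promoter of Polr2a is shown because it carries both a TATA box and GC boxes, elements that polymerase II factors and Sp1-type proteins are known to bind. The sequence is the RefSeq window (GRCm38.p6) from 250 bases before to 50 after the start, minus strand, at chr11:69758584-69758883. Capitals mark the TATA box motif TATAAA, the GC box motif GGGCGG and the ETS core CCGGAAG, on either strand.
Polr2a: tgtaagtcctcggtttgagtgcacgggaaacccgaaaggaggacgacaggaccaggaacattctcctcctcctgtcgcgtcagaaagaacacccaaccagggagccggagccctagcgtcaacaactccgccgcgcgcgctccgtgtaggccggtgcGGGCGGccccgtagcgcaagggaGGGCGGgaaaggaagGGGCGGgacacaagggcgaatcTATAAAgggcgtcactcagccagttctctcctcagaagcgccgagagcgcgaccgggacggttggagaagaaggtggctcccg
It held 3 GC boxes and 1 TATA box and no ETS core. The 3 motifs were chosen after promoters had been looked at. TATAAA was found in 13.6% of the 32851 promoters of the table, all 300 bases long, GGGCGG in 35.7% and CCGGAAG in 8.86%. These promoters include those of genes that were not compared. Among the 5999 genes compared that had a promoter, the shares were 6.40%, 68.7% and 21.3%.

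Polymerase I has 3 subunits of its own among the genes taken by symbol, and these 3 were below 0 on their brightest probe sets, without holding to that direction on all of them. A further subunit of the enzyme, Znrd1, whose symbol falls outside the rule, read 10.24 in hybridized cells and 10.16 in live cells, a difference of 0.08. Besides Polr1a, Polr1e, an associated factor of the enzyme, read 10.82 and 11.50, but its second probe set read 8.82 and 7.91, and the mean over both differed by 0.12. Polr1b, the second largest subunit, read 9.77 and 9.98. The directions of Polr1b and Polr1e turn positive when 0.80 is added by the hybridization controls. Polr1c and Polr1d, the assembly subunits shared with polymerase III, differed by -0.17 and 0.57. Polr1d repeated on its second probe set at 0.56, whereas that of Polr1c differed by 0.76.

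In polymerase II the 2 largest subunits, Polr2a and Polr2b, were 2-fold lower on their brightest probe sets, though Polr2a differed by 0.26 on its second. Polr2b, the second largest subunit, read 10.16 in hybridized cells and 11.23 in live cells, a difference of -1.07 on its only probe set. The call rests on a narrow margin: the difference of Polr2b was -0.90 after centring on the median gene and -0.27 after centring on the hybridization controls. Polr2i read 10.18 and 11.14, just under 2-fold at -0.96, and Polr2c, of the assembly platform, differed by -0.58. The remaining 4 ran from 0.02 to 0.36. They were Polr2d (0.06) and Polr2g (0.36), which form the stalk, Polr2j (0.02), the partner of Polr2c, and Polr2m (0.02), which encodes the polymerase-bound protein Gdown1. Of the 8 genes 0 were 2-fold higher and 2 (25%) lower, against 8.43% and 15.4% of all genes compared. Of the subunits common to all 3 enzymes, the rule took Polr2e (10.19 and 10.35), Polr2f (7.61 and 7.90) and Polr2h (11.08 and 10.14). None of these 3 genes was 2-fold apart, and Polr2h was the highest of them at 0.94. Polr2k and Polr2l, also common subunits, were passed over because their probe sets are shared with other genes.

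Polymerase III had 8 subunits of its own, 1 at least 2-fold higher and 1 lower. That is 12.5% each, against 8.43% and 15.4% of all genes compared. Polr3f, part of the trimer that opens the promoter with TFIIIB, was 2-fold higher at 9.05 against 7.65. Its second probe set differed by only 0.14. Polr3c, of the same trimer, read 8.83 and 8.44, with 1.03 on its second probe set. Their partner in it exists in alternative forms encoded by Polr3g, known for its expression in pluripotent cells, and Polr3gl, the widely expressed form. Polr3g read 10.43 and 10.20, and Polr3gl 7.54 and 7.62, so each differed by less than 1.5-fold. Polr3k, needed for termination, differed by -0.20 on its brightest probe set and by 0.95 on the next, with 0.04 and 0.79 on another 2. Polr3d and Polr3e, which form a further subcomplex, differed by -0.74 and -0.40.

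**Figure D2:**
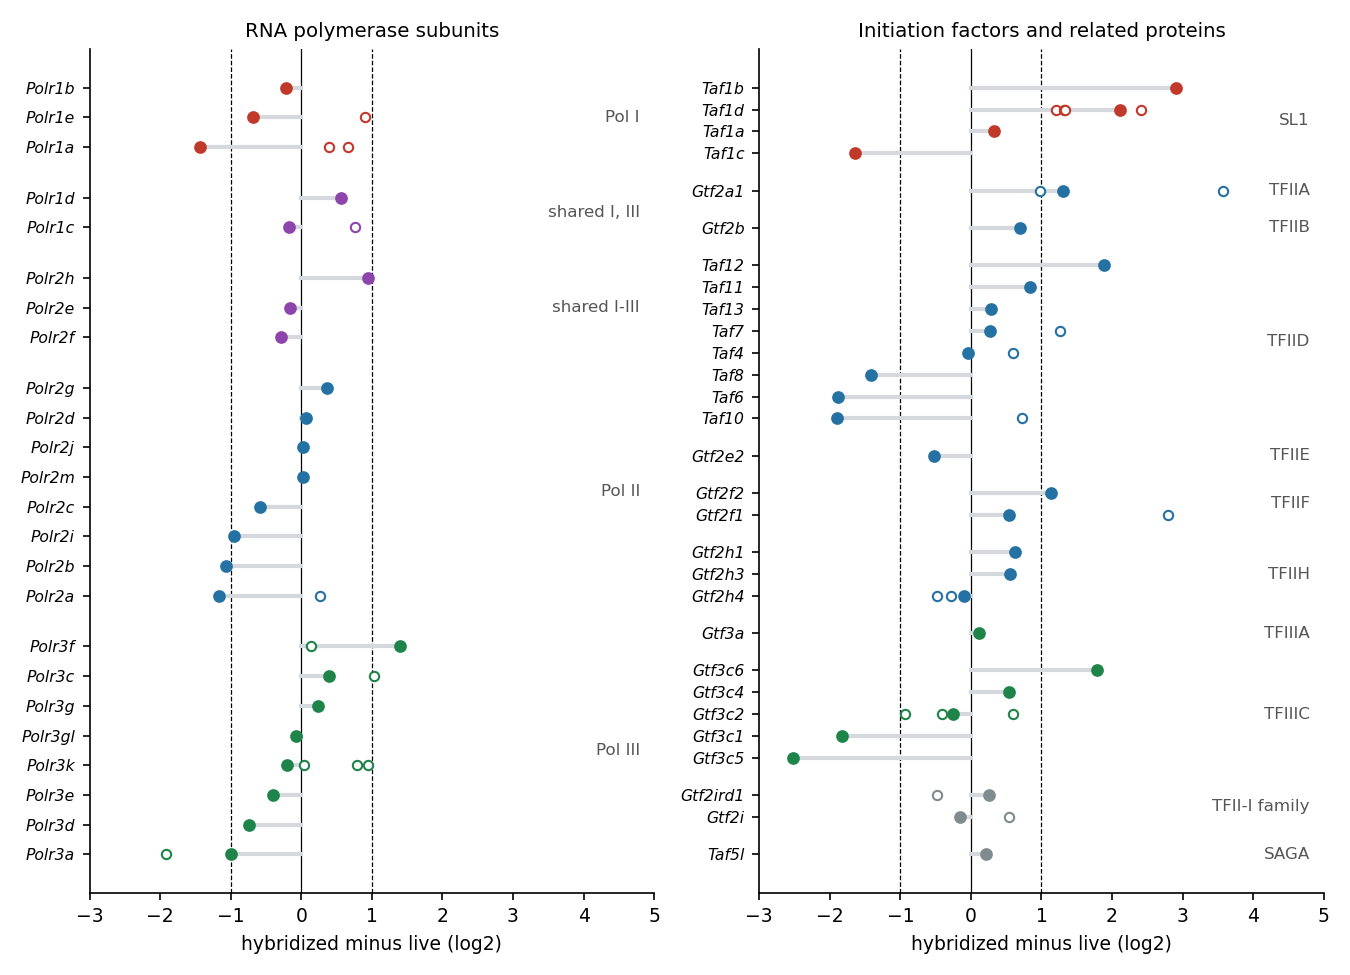
Difference (hybridized minus live, log2, x axis) of each of the 53 genes at the level, grouped by complex; filled points are the brightest probe set and open points other probe sets of the same gene at the level, coloured red for polymerase I, blue for II, green for III, purple for shared subunits and grey for the rest. Dashed lines mark 2-fold; all 5 points of Taf1d lie to the right of the upper one, and the open points of Polr1a, Polr2a and Taf10 lie across 0 from the filled ones.

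SL1, which recruits polymerase I to the ribosomal RNA promoter, held the widest spread of the complexes with several genes, with an SD of 2.02 over 4. Taf1b, its TFIIB-like subunit, was the highest of the 53 genes. It read 8.63 in hybridized cells and 5.72 in live cells, a 7.52-fold difference on its only probe set, which ranked 18 among all 7262 genes. The live value lay at about the median of that array over all probe sets, 5.73. Taf1d, a further SL1 subunit whose introns host small nucleolar RNAs, read 11.65 and 9.54. Its 4 other probe sets also were at least 2-fold higher. They read 11.72 and 9.31, 10.91 and 9.71, 10.26 and 8.94, and 8.40 and 7.07, which are differences of 2.41, 1.20, 1.32 and 1.33. Taf1c, an SL1 subunit that contacts the polymerase-bound factor Rrn3, went the other way with 5.43 and 7.07, a difference of -1.64 on its only probe set. The hybridized value of Taf1c was under the median of that array, 5.67. Taf1a read 6.27 and 5.95. So 2 of 4 SL1 genes were 2-fold higher and 1 lower, where the shares over all genes compared were 8.43% and 15.4%. Both higher members kept the 2-fold call under each scaling run. Taf1c was no longer 2-fold lower when centred on the hybridization controls.

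The promoters of the 3 SL1 genes furthest from 0 are printed together because the genes serve a single complex and differed in opposite directions. Windows and capitals are as for Polr2a. Taf1b lies on the plus strand at chr12:24498331-24498630, Taf1d on the plus strand at chr9:15305964-15306263, and Taf1c on the minus strand at chr8:119605157-119605456, the first of 2 windows listed for it.
Taf1b: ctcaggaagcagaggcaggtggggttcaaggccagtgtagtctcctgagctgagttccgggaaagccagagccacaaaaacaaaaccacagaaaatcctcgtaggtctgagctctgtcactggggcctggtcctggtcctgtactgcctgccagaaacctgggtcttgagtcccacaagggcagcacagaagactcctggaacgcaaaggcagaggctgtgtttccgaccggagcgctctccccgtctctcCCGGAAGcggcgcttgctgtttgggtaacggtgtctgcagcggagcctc
Taf1d: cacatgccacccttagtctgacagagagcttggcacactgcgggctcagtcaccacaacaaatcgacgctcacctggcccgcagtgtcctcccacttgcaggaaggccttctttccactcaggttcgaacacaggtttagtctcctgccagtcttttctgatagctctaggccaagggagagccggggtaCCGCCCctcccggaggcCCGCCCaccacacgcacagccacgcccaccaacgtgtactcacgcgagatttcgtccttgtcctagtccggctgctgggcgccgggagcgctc
Taf1c: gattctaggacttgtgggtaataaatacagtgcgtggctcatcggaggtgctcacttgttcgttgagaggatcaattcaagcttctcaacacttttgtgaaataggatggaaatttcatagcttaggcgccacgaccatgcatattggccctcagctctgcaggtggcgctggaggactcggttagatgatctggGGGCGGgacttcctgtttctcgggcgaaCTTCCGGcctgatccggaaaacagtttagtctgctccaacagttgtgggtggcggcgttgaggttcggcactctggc
Taf1b held 1 ETS core and no GC box, Taf1d 2 GC boxes and no ETS core, and Taf1c 1 of each. None of the 3 windows held TATAAA.

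TFIIIC, which binds the internal promoter of transfer RNA genes, was split in the same way. Gtf3c5, a subunit of its start-site-facing lobe, was the lowest of the 53 genes. It read 5.53 in hybridized cells and 8.05 in live cells on its only probe set, a difference of -2.52. The hybridized value was under the median of that array over all probe sets, 5.67. Gtf3c1, the largest subunit, which contacts the B box, read 9.07 and 10.90, a difference of -1.83. Gtf3c6, the smallest subunit, read 10.29 and 8.50 and was 1.79 higher, while its other probe set was under the level (4.69 and 4.73). Gtf3c4 read 10.54 and 10.00. Gtf3c2, the partner of Gtf3c1, differed by -0.25 on its brightest probe set and from -0.93 to 0.60 over 4. Of 5 genes 1 was 2-fold higher and 2 lower, where the shares over all genes compared were 8.43% and 15.4%. Both lower calls held under each scaling run. Gtf3a, which encodes TFIIIA, the zinc finger factor of the 5S ribosomal RNA genes, read 7.82 and 7.71.

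The promoters of the 3 TFIIIC genes that were 2-fold apart are shown for the same reason. All are on the minus strand, Gtf3c6 at chr10:40257663-40257962 (the first of 2 windows listed), Gtf3c1 at chr7:125707639-125707938 and Gtf3c5 at chr2:28583230-28583529.
Gtf3c6: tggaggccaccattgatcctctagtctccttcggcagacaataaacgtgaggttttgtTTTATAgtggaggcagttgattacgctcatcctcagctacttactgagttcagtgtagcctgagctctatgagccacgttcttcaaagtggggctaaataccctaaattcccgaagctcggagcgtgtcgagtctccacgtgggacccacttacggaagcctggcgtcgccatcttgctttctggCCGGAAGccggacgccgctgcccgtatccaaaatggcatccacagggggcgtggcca
Gtf3c1: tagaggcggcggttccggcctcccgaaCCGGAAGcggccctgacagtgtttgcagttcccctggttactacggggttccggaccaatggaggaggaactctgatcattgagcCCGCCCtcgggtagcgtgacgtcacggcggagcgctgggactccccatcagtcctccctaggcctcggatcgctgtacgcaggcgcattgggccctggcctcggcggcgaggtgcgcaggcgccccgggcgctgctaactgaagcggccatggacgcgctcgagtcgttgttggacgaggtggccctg
Gtf3c5: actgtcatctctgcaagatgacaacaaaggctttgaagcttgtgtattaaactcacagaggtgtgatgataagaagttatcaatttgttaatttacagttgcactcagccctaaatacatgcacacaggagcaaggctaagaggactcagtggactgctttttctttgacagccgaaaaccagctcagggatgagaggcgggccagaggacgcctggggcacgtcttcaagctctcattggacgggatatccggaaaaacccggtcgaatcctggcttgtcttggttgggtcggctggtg
Gtf3c6 held 1 ETS core and, on the reverse strand, 1 TATAAA, and Gtf3c1 held 1 ETS core and 1 GC box. None of the motifs was in the window of Gtf3c5.

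A promoter was at hand for 47 of the 53 genes. The ETS core was in 18 of them, or 38.3%, against 21.3% of the 5999 genes compared that had a promoter. The GC box was in 28, or 59.6%, against 68.7%, and TATAAA in 7, or 14.9%, against 6.40%. Among the 7 higher genes 4 held the ETS core, 1 the GC box and 1 TATAAA. Among 9 of the lower genes 2 held the ETS core, 7 the GC box and 2 TATAAA. These are counts of letters in 1 window a gene, the first listed, and no test was run on them. Shares among all higher and all lower genes compared are not at hand, so the counts by direction have no background.

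TFIID, the promoter-recognition complex of TBP and TAF proteins, had 8 measured genes at the level, 1 at least 2-fold higher and 3 lower. That is 12.5% and 37.5%, against 8.43% and 15.4% of all genes compared. Taf12, a histone-fold subunit that is also in the coactivator SAGA, read 8.29 in hybridized cells and 6.41 in live cells, a difference of 1.88. Its histone-fold partner Taf4 read 10.11 and 10.15. Taf10, also shared with SAGA, read 9.05 and 10.95, a difference of -1.90. Its second probe set, close to the level, read 5.40 and 4.67 and so differed the other way. Taf8, the partner of Taf10, read 7.55 and 8.96, a difference of -1.41, and Taf6, a scaffold subunit, 7.22 and 9.10, a difference of -1.88. Taf12, Taf6 and Taf8 have a single probe set at the level. Taf11 and Taf13, which pair with each other, differed by 0.84 and 0.28. Taf7, known to restrain the acetyltransferase activity of Taf1, differed by 0.27, with 1.26 on its second probe set. Under the centring on the hybridization controls Taf10 and Taf6 stayed 2-fold lower and Taf8 did not.

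The other polymerase II factors, TFIIA, TFIIB, TFIIE, TFIIF and TFIIH, had 8 genes at the level, 6 of them above 0, with a median of 0.59 and 2 at least 2-fold higher. This grouping without TFIID was chosen after the values were seen. With TFIID, the 16 factor genes of polymerase II had a median of 0.41, 10 above 0, 3 at least 2-fold higher and 3 lower. Over all genes compared, 2981 of 7262 were above 0, 8.43% were 2-fold higher and 15.4% lower. Over the scalings run, 6 to 8 of the 8 were above 0, and the median ran from 0.56 to 1.39. Gtf2a1, which encodes the large TFIIA precursor, was 2-fold higher at 11.07 against 9.77. Its second probe set read 10.13 and 9.15, and a further probe set 8.47 and 4.90. Gtf2b, for TFIIB, the factor that sets the start site, read 10.73 and 10.04. Gtf2f2, the small subunit of TFIIF, was 2-fold higher at 8.91 against 7.77. Gtf2f1, the large subunit, read 9.69 and 9.15, with 8.47 and 5.68 on its second probe set, a difference of 2.79. Of the TFIIH core, Gtf2h1 read 9.25 and 8.62, Gtf2h3 8.27 and 7.72, and Gtf2h4 11.10 and 11.20. Gtf2e2, for the small subunit of TFIIE, read 10.66 and 11.19. None of these 8 genes was 2-fold lower.

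Outside these complexes, Gtf2i, for the signal-responsive factor TFII-I, read 10.41 and 10.57. Its relative Gtf2ird1 read 8.75 and 8.50. Taf5l, a SAGA subunit, read 10.11 and 9.90. The 4 genes under the level were Gtf2a1l (2.11 and 1.95) and Taf7l (2.90 and 3.22), both known as germ cell forms, Taf6l (3.74 and 4.35) and Gtf2ird2 (4.15 and 5.50). Gtf2ird2 was just outside the level at a mean of 4.83, and Taf1a, the lowest inside it, had a mean of 6.11.

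The medians of the 3 polymerase systems lay close together next to the spread within each. The 7 genes of polymerase I alone (3 subunits and 4 SL1 genes) had a median of -0.21 but a mean of 0.20. They ran from -1.64 to 2.91, with 2 at least 2-fold higher and 2 lower. The 24 genes of polymerase II had a median of 0.04 and ran from -1.90 to 1.88, with 3 higher and 5 lower. The 14 of polymerase III had a median of -0.14 and ran from -2.52 to 1.79, with 2 higher and 3 lower. The shares were 28.6% higher and 28.6% lower for I, 12.5% and 20.8% for II, and 14.3% and 21.4% for III. Over all genes compared they were 8.43% and 15.4%, and the counts of each system are small. The medians of polymerase III and II differed by -0.18, which became 0.12 when probe sets with the suffixes _x_at, _s_at and _a_at were left out. The order of the 3 systems is therefore not settled by these arrays. The sign of each median also depends on the scaling. Centred on the hybridization controls the medians of polymerases I, II and III were 0.59, 0.84 and 0.66. Under quantile normalization that of polymerase II was -0.018.

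**Figure D3:**
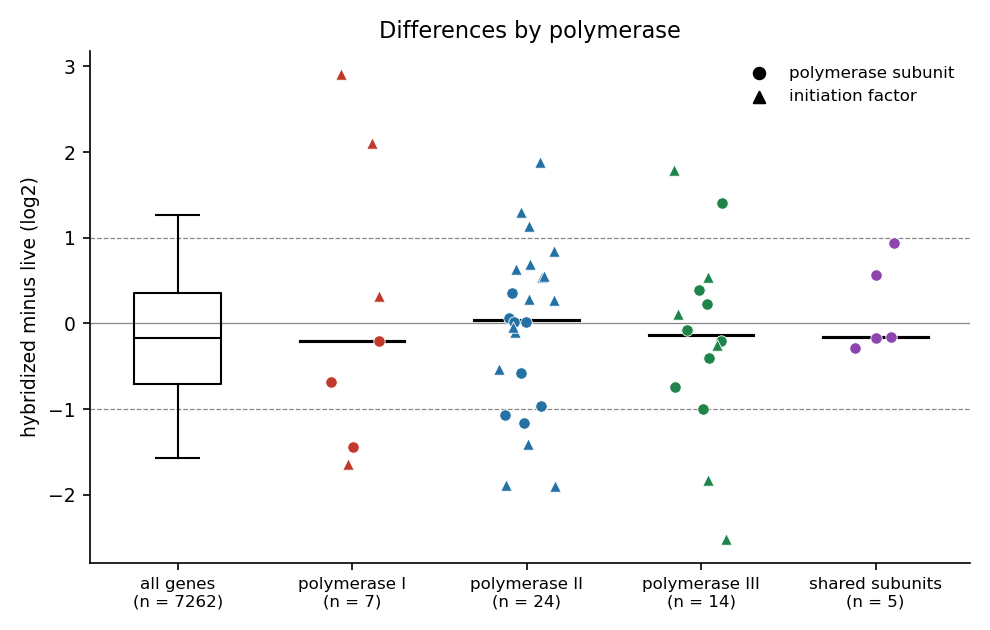
Difference (hybridized minus live, log2, y axis) of the genes of each polymerase, with circles for polymerase subunits and triangles for initiation factors; black lines are medians, and the box shows all 7262 genes compared, with quartiles and whiskers at percentiles 5 and 95. The points furthest from 0 in each polymerase are triangles, and the 3 medians, -0.21, 0.04 and -0.14, lie close to that of all genes.

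The factors differed between the arrays more often than the polymerase subunits. Of 24 subunits 1 was at least 2-fold higher and 4 lower, which is 20.8% against the background of 23.8% in either direction. Of 29 factors and related genes 6 were higher and 6 lower, or 41.4%. The SD of the differences was 0.68 over subunits and 1.29 over factors, with 0.86 over all genes. Subunits had a median level of 10.29 and factors of 9.42. Within means from 9 to under 11, 1 of 11 subunits and 5 of 15 factors were 2-fold apart, and from 7 to under 9, 2 of 6 and 5 of 9. From 11 upward it was 2 of 6 subunits (Polr2a and Polr3a) and 0 of 2 factors. No test was run on this split, which was made after the values were seen.

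For 19 of the 53 genes another probe set reached the level, which gives a measure of spread within the arrays. The differences at the brightest and second probe sets correlated with r = 0.404 across these 19 genes, which are not replicates, against 0.390 over 2720 genes of the whole array. The sign was the same for 10 of the 19, or 52.6%, against 63.7%. The gap between both, as an SD over the square root of 2, was 0.79, and 0.73 over the array. Of the 17 genes that were 2-fold apart, 7 had a second probe set. It was 2-fold apart in the same direction for Taf1d and Polr3a and just under for Gtf2a1 (0.98). For Polr3f it was 0.14, and for Polr1a, Polr2a and Taf10 it had the opposite sign. The 10 others, Taf1b, Taf1c, Taf6, Taf8, Taf12, Gtf2f2, Gtf3c1, Gtf3c5, Gtf3c6 and Polr2b, rest on a single probe set at the level.

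**Figure D4:**
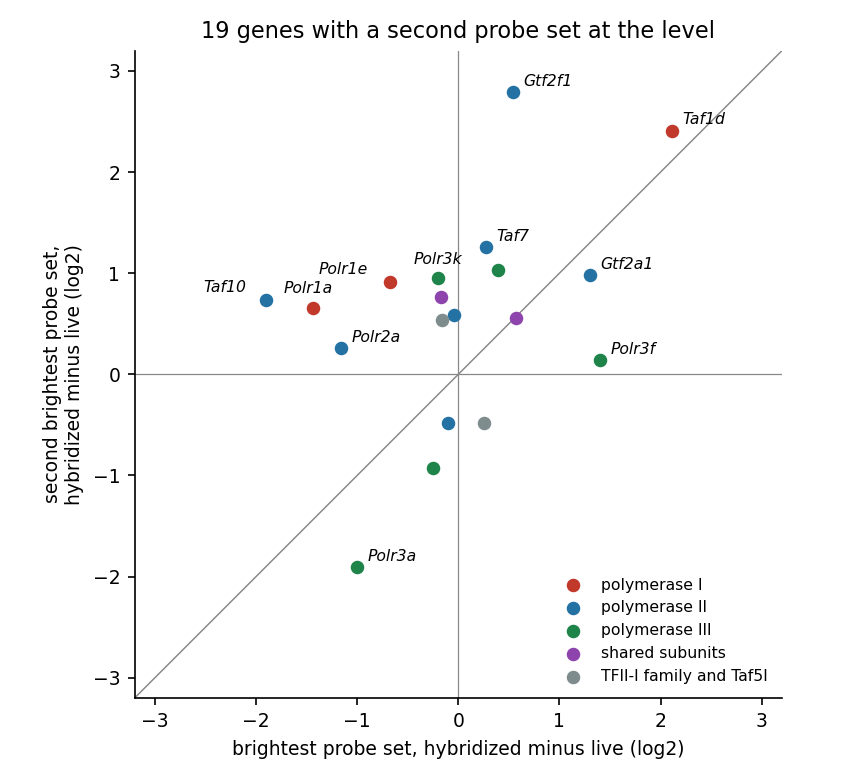
Difference (hybridized minus live, log2) at the brightest probe set (x axis) and the second brightest (y axis) of the 19 genes with both at the level; the diagonal marks equal differences. Taf1d, Gtf2a1 and Polr3a lie in the quadrants where both differences have the same sign, while Polr1a, Polr1e, Polr2a, Polr3k and Taf10 are below 0 on the x axis and above 0 on the y axis.

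The partners of this machinery, from a list of other genes of the pathway, lay near the background. Of 90 measured, 85 reached the level. In the hybridized sample 5 were at least 2-fold higher, or 5.88%, and 14 lower, or 16.5%. TBP, the subunit common to the factors of all 3 polymerases, was encoded by Tbp at 10.52 and 9.77, a difference of 0.75. Rrn3, which joins polymerase I to SL1, read 12.57 and 11.76. Ubtf, which bends the ribosomal RNA promoter, was 2-fold lower at 9.85 against 11.00, but its second probe set differed by 0.62. Among the partners of polymerase III, Maf1, its repressor, read 10.43 and 12.03 with -1.88 on the second probe set. Snapc2, of the small nuclear RNA activating complex, read 7.52 and 9.57 with -1.69 on the second. Both were thus at least 2-fold lower on each of their 2 brightest probe sets; adding 0.80 leaves only Snapc2 so on the brightest. Brf1 and Bdp1 of TFIIIB were not analysed here.

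Of 27 Mediator genes, whose complex links activators to polymerase II, 2 were at least 2-fold higher (Med6 at 1.86 and Med27 at 1.45). The 6 lower ones were Med16 (-1.72), Med25 (-1.26), Med24 (-1.25), Med22 (-1.16), Med12 (-1.11) and Med20 (-1.05, with 0.08 on its second probe set). Centred on the hybridization controls, none of these 6 stays 2-fold lower, while Med6 and Med27 stay higher. Near the level, Med27 read 5.78 in hybridized cells and 4.33 in live cells, Med16 4.90 and 6.62, and Med25 4.69 and 5.95. That is 7.41% higher and 22.2% lower, against 8.43% and 15.4% of all genes compared, and the Mediator median was -0.13. The 18 elongation genes had a median of -0.57, with 14 below 0, where all genes compared had a median of -0.17 with 4248 of 7262 below 0. Only Cdk9, the kinase of P-TEFb, was 2-fold lower (10.29 and 11.64) and Tcea3 higher (1.05). That median turns to 0.24 with the hybridization controls, with 3 of the 18 below 0. For the other TFIIH subunits, Cdk7, its kinase, differed by 1.49 but by -0.14 on its second probe set. Ercc2, a helicase, differed by -1.34, near the level at 4.41 in hybridized cells and 5.75 in live cells. The remaining 2-fold partners were Ctdp1, the polymerase II tail phosphatase (-1.45), Kat2a, the SAGA acetyltransferase (-1.96, with 0.07 on its second probe set), Polrmt, the mitochondrial polymerase (-1.65, and -1.0 on its second probe set), and Tefm, its elongation factor (1.07).

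**Figure D5:**
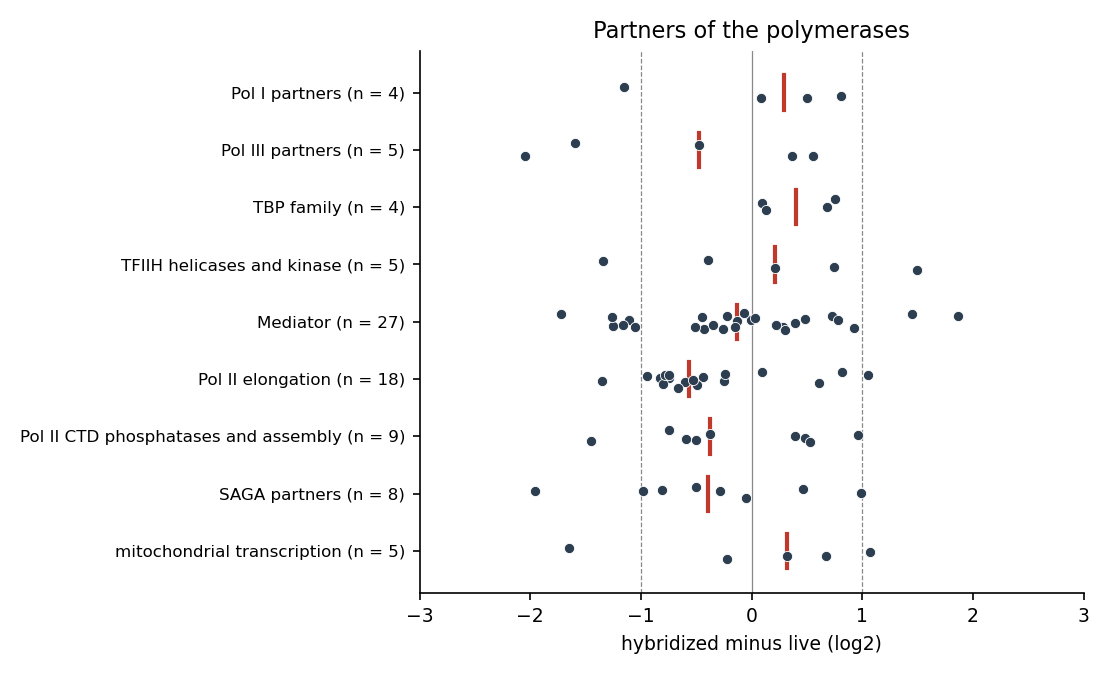
Difference (hybridized minus live, log2, x axis) of 85 partner genes at the level, by list; each point is a gene, red lines are list medians and dashed lines mark 2-fold. The elongation list has its median at -0.57 as deposited (0.24 with the hybridization controls) and Mediator at -0.13, with 6 of the 27 Mediator points beyond the lower dashed line.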

How the data were processed

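The data are 1 array each of a hybridized and a live mouse iPSC sample, grouped by their labelled sample type. Trizol LS was used for extraction and NuGEN Ovation for amplification, per the labels' protocols. The submitters' processing notes name GCRMA and affy; the sources used here give neither versions nor a genome build. The authors deposited a value for every probe set on each array, taken as log2 GCRMA values because of the method and the range of 1.02 to 14.24; the file states no log base, nor the arrays that were normalized with each other. No detection calls were used, and the level of 5 is arbitrary.

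Symbols came from the platform table; probe sets with several genes or none were left out. Genes were reduced to the brightest probe set. There is no fitted model and no p-value. The named genes are all 2-fold members, the extremes of each complex, members whose probe sets disagree and 2-fold partners; further members are named to account for the list. The members and lists were chosen with earlier results of these data known. Alternatives were other level limits, other probe set choices, other scalings and fold thresholds of 1.5 and 4; counting shared subunits with each polymerase was chosen after seeing the data. Protein identities of paralogs were planned but not computed. The procedure was tested on simulated data. Software was Python 3.11.15, pandas 2.3.3 and numpy 2.4.6, with statsmodels 0.14.6 for loess, scipy 1.17.1 for correlations and matplotlib 3.10.9 for figures.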

Additional observations from a re-analysis of the deposited data

How the results depend on the processing

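Medians are described as moved when they changed by more than the spread between probe sets of a gene divided by the square root of the number of genes. Centred on the hybridization controls, 23 genes were at least 2-fold higher and 4 lower (7 and 10 as deposited), and the medians were 0.82 for all 53 genes, 0.59 for polymerase I, 0.84 for II and 0.66 for III. Centred on the median gene, the median was 0.19 for all and 0.21 for polymerase II. Without probe sets with the suffixes _x_at, _s_at and _a_at, 40 genes remained, with medians of 0.30 for all, 0.32 for polymerase I, 0.28 for II and 0.39 for III, and the gap between III and II was 0.12. Averaging probe sets gave 0.12 for polymerase I, and the loess correction 0.056 for polymerase III. At 1.5-fold 11 genes were higher, and at 4-fold 2 were higher and 1 lower. Counting shared subunits with each polymerase moved no median beyond this spread. None of the 17 genes that were 2-fold apart changed sign under any alternative run, but most alternatives could not have changed it. Centring added at most 0.80 to differences of at least 1 in size, and level limits and fold thresholds leave the differences as they are. Taken alone, the next brightest probe set gave the opposite sign for Polr1a (0.66), Polr2a (0.26) and Taf10 (0.73). It gave the same sign for Gtf2a1, Polr3a, Polr3f and Taf1d. Gtf2a1, Gtf2f2, Gtf3c1, Taf12, Taf1d and Taf6 were measured and 2-fold apart under each alternative except the 4-fold threshold. Of these, Gtf2f2, Gtf3c1, Taf12 and Taf6 have only 1 probe set, so the other probe set choices could not change their values. Averaging probe sets took Gtf3c6, Polr1a, Polr2a, Polr3f and Taf10 under 2-fold. No paired analysis was possible because each group has 1 array. Signal over background could not be judged without detection calls, so low values cannot be ordered.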

Other observations

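The rule passed over 5 probe sets that the platform table assigns to several genes, of which 1 matches the rule. Taf9, the histone-fold partner of Taf6, shares 3 of them. Those shared with Gm12372 read 11.00 in hybridized cells and 10.60 in live cells, and 11.76 and 12.26, and the probe set shared with Ak6 read 9.53 and 9.55. The probe set of Polr2l, a small subunit common to the 3 polymerases, shared with Usp50, read 10.18 and 11.06. That of Polr2k, another common subunit, shared with LOC100862456, read 9.88 and 9.59. None of the 5 was 2-fold apart, and which gene gave the signal cannot be told from them.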
